A study of Mus musculus with 2 samples.

Results

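The mouse genome holds a pair of clusters in which the microRNA (miRNA) hairpin genes of the miR-23, miR-27 and miR-24 families follow each other, and opposite the miR-24 hairpin of each cluster the annotation places a miR-3074 gene on the other strand. The 8 genes were taken by name from the annotation: Mir23a, Mir27a and Mir24-2 (cluster a), Mir23b, Mir27b and Mir24-1 (cluster b), and the antisense genes Mir3074-2 and Mir3074-1. They are 8 of the 2202 miRNA genes counted in C2C12, a myoblast line from C3H mouse thigh muscle taken after crush injury. The study sequenced small RNA, below 30 nucleotides per the labels, from 2 biological replicates of that line. No treatment, genotype, time or culture stage is given, so the data hold no second condition. Cluster a is therefore set against cluster b, and the miR-3074 strand against the miR-24 strand, within each library.

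In both clusters 1 primary transcript is thought to carry the miR-23, miR-27 and miR-24 hairpins, which are cut out separately and give mature miRNAs from either arm. Target choice rests mainly on the seed, bases 2 to 8 of the mature miRNA. In mouse muscle, miR-23a is known to repress the atrophy ubiquitin ligases, miR-27 to repress Pax3 and so to favour entry into differentiation, and miR-24 to be held down by TGF-beta signalling and to promote myoblast differentiation. The clusters are also expressed in endothelium. The miR-3074 hairpins are read from the strand opposite miR-24.

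The mature sequences show how far the copies can be told apart by sequencing. RefSeq (GRCm38.p6) gave hairpins for all 8 genes, each identical to its GENCODE M21 transcript, and the sequences of 12 mature names; miR-23b-3p and miR-3074-1-3p are not among these 12. Those that bear on the counts are printed 5′ to 3′ with the seed in capitals, beginning with 3′ arms of miR-23a, miR-27 and miR-24 and followed by arms of miR-3074.
mmu-miR-23a-3p: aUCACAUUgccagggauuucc
mmu-miR-27a-3p: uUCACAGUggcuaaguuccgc
mmu-miR-27b-3p: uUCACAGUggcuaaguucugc
mmu-miR-24-3p: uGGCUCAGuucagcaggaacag
mmu-miR-3074-5p: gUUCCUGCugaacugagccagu
mmu-miR-3074-2-3p: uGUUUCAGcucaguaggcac

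The miR-27a and miR-27b 3′ arms share the seed and differ by 1 substitution, C19U, counted from 1 at the 5′ end of miR-27a-3p. The seeds of miR-23a-3p and miR-27a-3p differ at 1 base (U7G, miR-23a-3p first), and the whole arms at 10 of 21 positions. The same miR-24-3p sequence lies in both the Mir24-2 and the Mir24-1 hairpin, and the same miR-3074-5p sequence in both miR-3074 hairpins. Of the 12 mature names, these 2 were the ones found in 2 of the 1005 RefSeq hairpins searched, while each of the other 10 was found in 1. This search used whole mature sequences. The Mir23a and Mir23b hairpins share an identical stretch of 20 bases, as do those of Mir27a and Mir27b. Reads that lie within such a stretch would match both clusters. The miR-24-3p and miR-3074-5p sequences are complementary to each other over 20 of their 22 bases.

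The 5′ arms of miR-24 differ between the clusters and can mark their origin.
mmu-miR-24-2-5p: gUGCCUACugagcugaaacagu
mmu-miR-24-1-5p: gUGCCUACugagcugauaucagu
They share the seed but are 22 and 23 bases long. Lined up from the 5′ end without gaps, they differ at 5 positions, the first A17U (miR-24-2-5p first). Reads of both arms are summed in the deposited count of a hairpin.

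Cluster a spans 404 bases of mouse chromosome 8 (mm10, 84208518 to 84208921, plus strand) and has no annotated host gene. The last 2 bases of Mir24-2 overlap an exon of the long non-coding RNA gene Gm26532. Cluster b spans 792 bases of chromosome 13 (63300484 to 63301275, plus strand) inside the protein-coding gene 2010111I01Rik, named Aopep by RefSeq, an aminopeptidase gene. Mir23b lies in an intron of it, whereas Mir27b and Mir24-1 overlap annotated exons of it. The clusters differ most in the gap between the miR-27 and miR-24 hairpins, which is 56 bases in cluster a and 423 bases in cluster b. Mir3074-2 (84208825 to 84208907, minus strand) lies wholly opposite Mir24-2. Mir3074-1 (63301199 to 63301283, minus strand) covers all of Mir24-1 and extends beyond it by 9 and 8 bases, and on its own strand it lies in an intron of Fancc, a DNA repair gene.

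**Figure D1:**
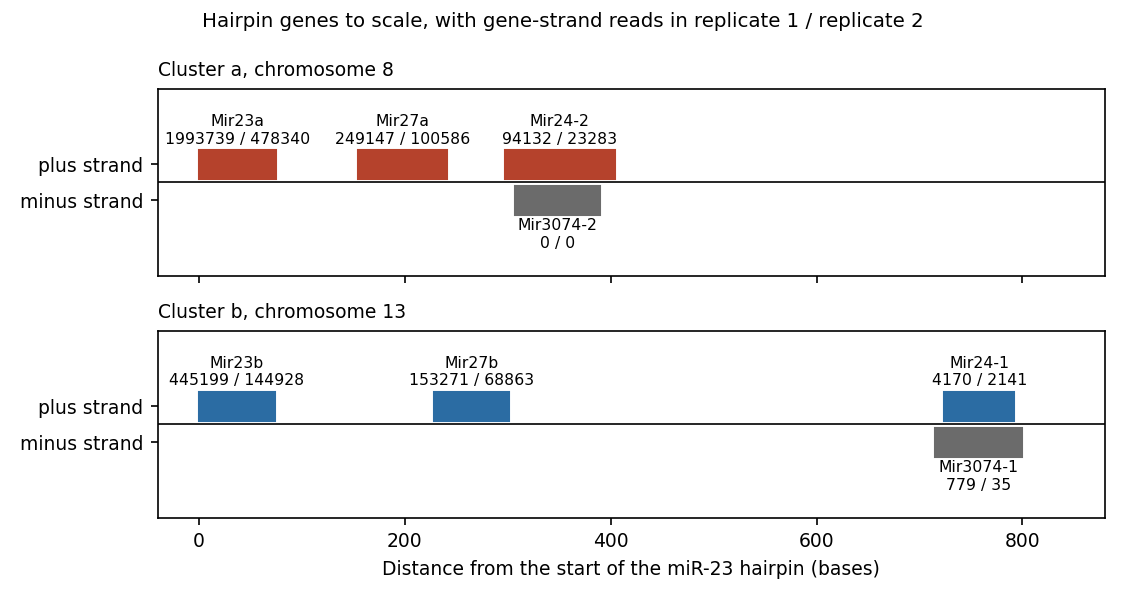
Position of the 8 hairpin genes, drawn to scale as distance in bases from the start of the miR-23 hairpin, with plus-strand genes above and minus-strand genes below the line. The numbers are gene-strand reads in replicate 1 and replicate 2: Mir23a has the most (1993739 and 478340) and Mir3074-2 has 0 in both.

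Gene-strand reads, those in the orientation of the annotated hairpin, totalled 27661907 in replicate 1 and 15025315 in replicate 2. Levels are given in CPM (counts per 1000000 such reads), and counting error was small for every member but Mir3074-1. The libraries differed in makeup. Gene-strand reads were 50.3% of the whole table in replicate 1 and 61.2% in replicate 2, and multi-mapping reads were 33.4% and 22.8%. Mir21a alone took 23.1% of the gene-strand reads in replicate 1 and 53.5% in replicate 2, which left a smaller part of the total for the other genes. Some of them still had a higher CPM in replicate 2, such as Mir22 (60486 and 72725 CPM). Ratios between genes of 1 library are free of this shift. Among the labelled muscle line's markers the highest was Mir206, at 2559 and 1028 CPM in replicates 1 and 2. Of the 7 muscle lineage markers, 3 had reads in both libraries, while Mir1a-1, Mir133a-1 and Mir133a-2 had none in either. Multi-mapping reads entered no marker count given here, and how many of them belong to these or the other markers was not tested. The 6 neuronal markers summed to 0.0723 and 0 CPM and the 5 epithelial markers to 20.9 and 16.8 CPM. Liver Mir122 stood at 3.90 and 1.26 CPM and endothelial Mir126a at 213 and 134 CPM. The 5 blood markers summed to 220 and 126 CPM, of which Mir142 alone held 215 and 122 CPM. The next highest blood marker was Mir150, at 3.80 and 1.73 CPM. The part of such cells in the levels of the 8 genes was not tested.

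Mir23a dominated the group. Its level was 72075 CPM in replicate 1 but 31836 CPM in replicate 2 (mean 51955 ± 28454, SD, n = 2), and it ranked 2nd and 4th of 2202 genes. Its paralog Mir23b had 16094 and 9646 CPM, ranks 14 and 12. The miR-27 genes were next and closer together, with Mir27a at 9007 and 6694 CPM and Mir27b at 5541 and 4583 CPM. All 4 stood among the 33 highest genes in both libraries.

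In reads counted to 1 gene, the miR-24 copies were the lowest of the sense genes and the farthest apart. Multi-mapping reads, which could hold miR-24-3p since both miR-24 hairpins carry it, are outside these levels. Mir24-2 had 3403 and 1550 CPM, ranks 46 and 51. Mir24-1 had 151 and 142 CPM, ranks 128 and 117, a mean of 147 ± 5.84 CPM (SD, n = 2). Mir3074-1 had 28.2 CPM in replicate 1 (exact 95% interval 26.2 to 30.2) and 2.33 CPM in replicate 2 (1.62 to 3.24). Mir3074-2 had no read in either library, which allows up to 3 counts, or 0.108 CPM in replicate 1 and 0.2 CPM in replicate 2. The order of the 8 genes was the same in both libraries, and the 2 values of a gene never overlapped those of the next gene in that order. Together the 8 genes took 10.6% of the counted reads in replicate 1 and 5.45% in replicate 2.

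**Figure D2:**
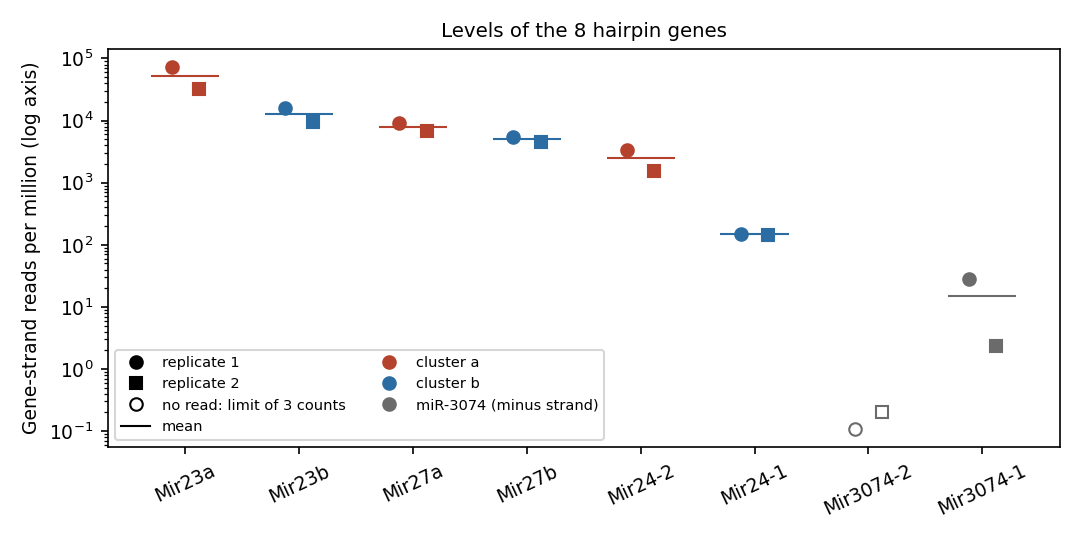
Gene-strand counts in CPM on a log axis for the 8 genes, with replicate 1 as circles, replicate 2 as squares and the mean as a bar. Open symbols for Mir3074-2 stand at the limit set by 3 counts (0.108 and 0.2 CPM). For miR-23, miR-27 and miR-24 the cluster a gene lies above the cluster b gene. Multi-mapping reads are left out.

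Cluster a was counted above cluster b for every family in both libraries, but by very different factors. Mir23a exceeded Mir23b 4.48-fold in replicate 1 (exact 95% interval 4.46 to 4.49) and 3.30-fold in replicate 2 (3.28 to 3.32). Mir27a exceeded Mir27b only 1.63-fold (1.62 to 1.64) and 1.46-fold (1.45 to 1.47). Mir24-2 exceeded Mir24-1 22.6-fold (21.9 to 23.3) and 10.9-fold (10.4 to 11.4). The intervals cover counting error only.

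On the log2 scale, the difference a over b averaged 1.94 ± 0.31 for miR-23, 0.62 ± 0.11 for miR-27 and 3.97 ± 0.75 for miR-24 (SD, n = 2 libraries). The order miR-24, miR-23, miR-27 was the same in both libraries, and the values of no family overlapped those of another. Expressed as a share of the family's gene-strand reads, cluster a held 95.8% and 91.6% of miR-24, 81.7% and 76.7% of miR-23 and 61.9% and 59.4% of miR-27. These counts leave out multi-mapping reads, and since miR-24-3p lies in both hairpins, how much of the miR-24 arm entered them was not tested. How many short miR-23 or miR-27 reads were left out in this way was not tested either. With 2 libraries, a two-sided exact permutation of signs cannot give a p below 0.5, so no test was made. Counted per hairpin base in place of per gene, the log2 difference was 1.92 for miR-23, 0.37 for miR-27 and 3.32 for miR-24. In bulk RNA, more expressing cells and more RNA per cell cannot be told apart.

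All 3 ratios were lower in replicate 2. The Mir24-2 to Mir24-1 ratio changed most, by a factor of 2.08 between the libraries, against 1.36 for miR-23 and 1.11 for miR-27. Summed over the 3 genes, cluster a held 2337018 and 602209 reads, and cluster b held 602640 and 215932 reads. Cluster a therefore exceeded cluster b 3.88-fold in replicate 1 and 2.79-fold in replicate 2.

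**Figure D3:**
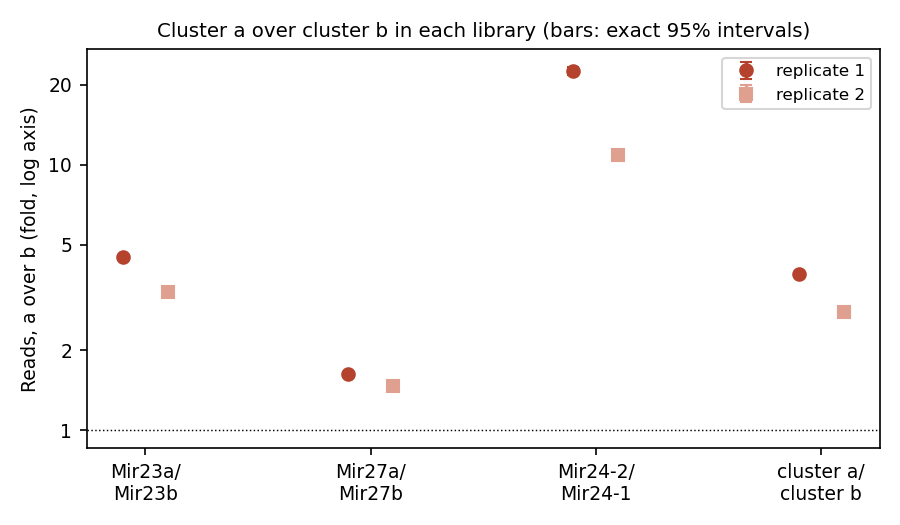
Reads of the cluster a gene over reads of its cluster b paralog (fold, log axis) in replicate 1 (dark circles) and replicate 2 (light squares), with exact 95% intervals that are mostly smaller than the symbols. Mir24-2/Mir24-1 stands highest (22.6 and 10.9), Mir27a/Mir27b lowest (1.63 and 1.46), and replicate 2 lies below replicate 1 in each case.

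The hairpins of 1 cluster did not contribute equal numbers of reads. In cluster a, Mir23a supplied 85.3% of replicate 1's reads and 79.4% of replicate 2's, Mir27a 10.7% and 16.7%, and Mir24-2 4.03% and 3.87%. In cluster b, Mir23b made up 73.9% and 67.1%, Mir27b 25.4% and 31.9%, and Mir24-1 0.692% and 0.992%. The order miR-23, miR-27, miR-24 was thus common to both clusters.

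The proportions differed between the clusters. Reads of Mir23a outnumbered those of Mir27a 8.0-fold and 4.76-fold, while Mir23b outnumbered Mir27b 2.90-fold and 2.10-fold. In both clusters the miR-27 share was higher and the miR-23 share lower in replicate 2. The step down to miR-24 was 21.2-fold and 20.5-fold from Mir23a to Mir24-2, and 107-fold and 67.7-fold from Mir23b to Mir24-1. As set out above, the 3′ arm of miR-24 has the same sequence in both clusters, whereas the 3′ arms of miR-27 differ at 1 base. Reads that mapped to several places formed a row of their own. Whether they hold miR-24-3p reads, and their part in the low miR-24 counts, was not tested.

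The 2 antisense genes differed from each other. At the Mir24-1 locus, Mir3074-1 had 779 reads on its own strand in replicate 1, against 4170 for Mir24-1, which is 15.7% of the locus (exact 95% interval 14.7 to 16.8). In replicate 2 it had 35 reads, against 2141 for Mir24-1, or 1.61% (1.12 to 2.23). The share was 9.79 times higher in replicate 1. At that share, 343 reads would have stood in replicate 2. At the Mir24-2 locus, Mir3074-2 had 0 reads in both libraries, against 94132 and 23283 for Mir24-2. This allows a share of up to 0.00319% in replicate 1 and 0.0129% in replicate 2, among reads counted to 1 gene. Multi-mapping reads, which could hold miR-3074-5p since both miR-3074 hairpins carry it, are outside this limit.

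Other genes gave the background for reads on the wrong strand. Mir23a, Mir27a, Mir23b and Mir27b, which have no annotated antisense gene, had 0 opposite-strand reads beside 2841356 gene-strand reads in replicate 1 and 792717 in replicate 2. Over all 2138 miRNA genes without such a partner, opposite-strand reads were 429 of 26819162 reads on either strand in replicate 1 (0.0016%, exact 95% interval 0.00145 to 0.00176) and 129 of 14781059 in replicate 2 (0.000873%, 0.000729 to 0.00104). Single genes of this set varied widely around the pooled share. Mir708 had 143 opposite-strand reads beside 8050 gene-strand reads in replicate 1, and 34 beside 2519 in replicate 2. Mir7654 had 20 beside 91 and 5 beside 34. The Mir3074-1 share lay above the pooled intervals in both libraries, but below that of Mir7654, which rests on few reads. The origin of the Mir3074-1 reads was not tested, and which arm they came from is not recorded in the counts.

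The annotation holds 32 pairs of miRNA genes that overlap on opposite strands, and in 11 of them the higher gene had at least 1000 reads in each library. Among these 11, and among reads counted to 1 gene, Mir3074-1 was 1 of 2 lesser genes that held at least 1% of the reads in both libraries. The other was Mir126b, opposite the endothelial Mir126a, with 250 of 6144 reads in replicate 1 (4.07%) and 80 of 2095 in replicate 2 (3.82%). These values agree within their counting intervals, unlike those of Mir3074-1. In 6 pairs the lesser gene had no read in either library: Gm25301 at Mir378a, Gm25927 at Mirlet7e, Mir30f at Mir30e, Gm24083 at Mir191, Mir142b at Mir142 and Mir3074-2 at Mir24-2. The lesser genes of the remaining 3 pairs stayed below 0.25% (Mir497b, with 21 and 19 reads, Mir374c with 4 and 1, and Gm24111 with 0 and 1).

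**Figure D4:**
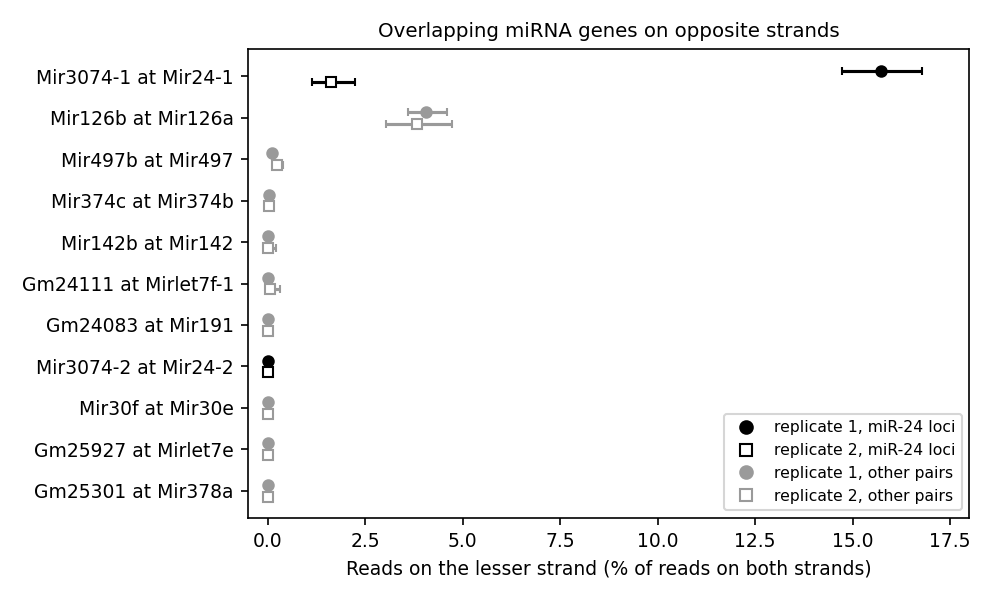
Share of reads on the lesser strand (percent of reads on both strands, exact 95% intervals) at the 11 pairs of overlapping miRNA genes with at least 1000 reads on the higher gene in each library. Filled circles are replicate 1 and open squares replicate 2, black for the miR-24 loci and grey for other pairs. Mir3074-1 stands at 15.7% and 1.61%, Mir126b at 4.07% and 3.82%, and Mir3074-2 at 0.

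The overlap also decides whether these genes can be read from the column that ignores strand. There, Mir24-1, Mir24-2 and Mir3074-2 had 0 reads in both libraries, and Mir3074-1 had 1 and 0, while Mir23a, Mir27a, Mir23b and Mir27b kept exactly their gene-strand counts. The reads reappear as ambiguous: 843141 in replicate 1 and 244382 in replicate 2, of which the 4 genes of the miR-24 loci account for 99081 and 25459. The opposite-strand column mirrors this. Mir3074-2 shows 94132 and 23283 opposite-strand reads, the exact counts of Mir24-2, and Mir24-1 shows 779 and 35, the exact counts of Mir3074-1. The 1 read of Mir3074-1 left in the strand-free column matches its opposite-strand count, 4171, which is 1 above the 4170 reads of Mir24-1.

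The replicates were also compared across all genes, to see how far each member moved beyond the general shift between the libraries. The log2 ratio of replicate 2 over replicate 1 after trimmed-mean (TMM) scaling, which raises every ratio by 0.90 against scaling by totals, was -0.28 for Mir23a, 0.47 for Mir27a and -0.24 for Mir24-2. It was 0.16 for Mir23b, 0.62 for Mir27b and 0.82 for Mir24-1. In each family the cluster b gene had the higher ratio, which restates the lower a over b ratios of replicate 2 given above. Mir3074-1 stood far below the rest, at -2.68 (exact 95% interval -3.23 to -2.21), a 6.40-fold lower scaled level in replicate 2.

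Of the 7 members with at least 10 reads over both libraries, 1 (Mir3074-1) differed at least 2-fold, against 112 of 556 genes (20.1%), and 46 of 556 (8.27%) did so toward a lower level in replicate 2, as Mir3074-1 did. Every sense member had a mean of at least 100 CPM, and none differed 2-fold. Of the 138 genes at that level, 15 differed at least 2-fold, 13 higher and 2 lower in replicate 2. The members' median log2 ratio was 0.16, against 0.09 over all 556 genes. Of the 556 genes, 6 had a lower ratio than Mir3074-1. Among the 44 other genes within 2-fold of its 814 summed reads, a window chosen after its value was seen, 5 differed at least 2-fold, none had a lower ratio (the lowest was -1.35), and 1 was farther apart in the other direction, at 6.62. Scaled by library totals, Mir23a (-1.18) and Mir24-2 (-1.13) also passed 2-fold, which made 3 of the 7 members, against 216 of 556 genes (38.8%). With 1 library on each side, these ratios have no replicate check and compare the libraries, not conditions.

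**Figure D5:**
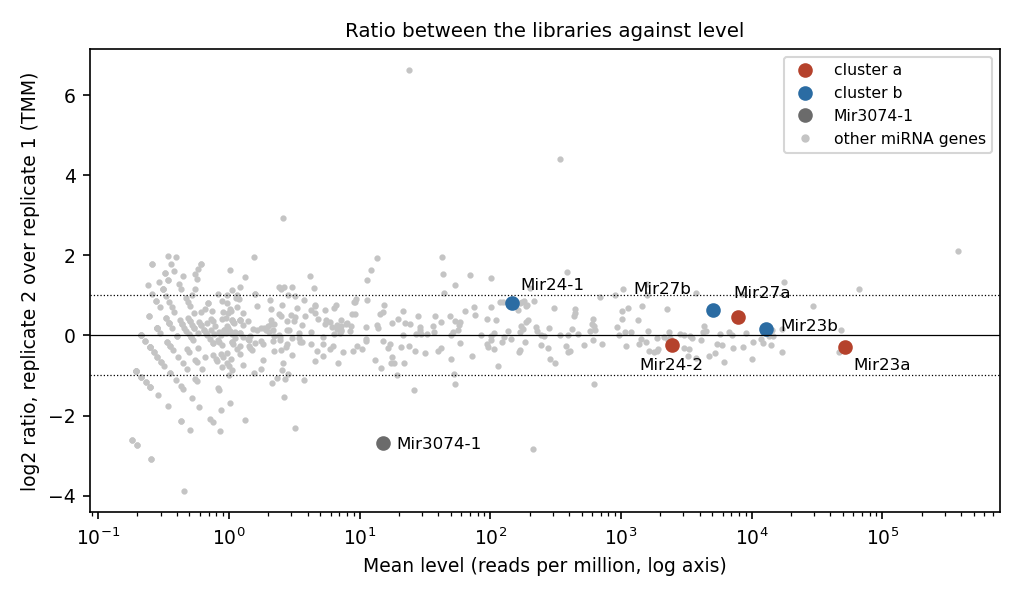
Log2 ratio of replicate 2 over replicate 1 after TMM scaling against mean level (CPM, log axis) for 556 miRNA genes, with the 7 members that had reads in colour. Dotted lines mark a 2-fold difference. Mir3074-1 (-2.68) lies outside them, and the 6 sense members lie between -0.28 and 0.82.

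Beside 18 other miRNAs with known roles in myoblasts, Mir23a was higher in CPM than every one in both libraries. Mir23b was higher than 15 of the 18 in replicate 1 and 16 in replicate 2. The 5 highest of that list were Mir31 at 29595 ± 2240 CPM, linked to satellite cell quiescence, Mir29a at 14639 ± 6380, a repressor of collagen genes, Mir221 at 12318 ± 6206, which represses the cell cycle inhibitor Cdkn1b, Mir26b at 10100 ± 6763, of the Ezh2-targeting family, and Mir322 at 7066 ± 3016 CPM, which promotes cell cycle exit (SD, n = 2 for each). In replicates 1 and 2, Mir27a was above 13 and 15 of the 18, Mir27b above 11 and 12, and Mir3074-1 above 6 and 5. Mir24-2 was above 10 and Mir24-1 above 8 in both libraries. Of the 18 listed genes, 3 had no read in either library. Multi-mapping reads entered none of these levels, so the places hold only for reads counted to 1 gene. Of the 14 listed genes in the library comparison, 1 differed at least 2-fold, toward a lower level in replicate 2 (Mir133b), and their median log2 ratio was -0.01. In mean CPM over all genes, Mir23a stood between Mir22 at 66606 ± 8655 CPM and Mir143 at 48683 ± 17906 CPM (SD, n = 2). Mir24-1 stood between Mir7-1 at 164 ± 20.5 CPM and Mir30c-2 at 144 ± 67.4 CPM (SD, n = 2). The values of Mir23a overlapped those of both neighbours, while those of Mir24-1 overlapped Mir7-1 and lay within the range of Mir30c-2.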

How the data were processed

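The deposited tables, 1 per library, hold raw read counts that the authors made per miRNA gene in 3 columns without a header. The columns were read as reads on either strand, on the gene strand and on the opposite strand, since the second column of counts held far more reads than the third. The deposited readme files name mm10 and GENCODE M21, and the labels point to an adapter trimming protocol. The aligner, the counter and the treatment of multi-mapping reads were not given in the sources used here. Rows naming no gene (unmapped, multi-mapping, on no gene, ambiguous) held 49.7% of replicate 1 and 38.8% of replicate 2 and stayed out of totals. Gene identifiers were matched to GENCODE M21, and mature sequences came from RefSeq GRCm38.p6.

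Levels are gene-strand counts per 1000000 gene-strand counts. Exact (Clopper-Pearson) 95% intervals and the limit of 3 counts cover counting error only. Ratios between libraries used TMM scaling (edgeR 4.0.16, R 4.3.3), a prior count of 0.5 and genes with at least 10 reads in sum, without p-values. The step was tested on simulated Poisson counts with as many genes raised as lowered. That setting was not built to copy the Mir21a shift or the spread between these libraries. Both samples are numbered as biological replicates of 1 group, and the spread between them may be technical. Named genes are the 8 members, Mir21a, overlapping pairs with at least 1000 reads on the higher gene, the 5 highest myogenic miRNAs, level neighbours of Mir23a and Mir24-1, and lineage markers. Members and lists were chosen with earlier results of these data known. Alternatives were other scalings (DESeq2 1.42.0 size factors, upper quartile, totals), count filters, strands, denominators and single libraries.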

Additional observations from a re-analysis of the deposited data

Results flagged for a closer look

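The multi-mapping reads, which entered no level given here, numbered 18382947 in replicate 1 and 5599235 in replicate 2. They are listed only because they are reads, above a count of 0, in data that no comparison used, and their number says nothing by itself about the 8 genes. In addition, 2 of the mature sequences of these genes, miR-24-3p and miR-3074-5p, lie in hairpins of both clusters. No control libraries were analysed here, and how many of these reads belong to the 8 genes was not tested.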

How the results depend on the processing

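Of 59 alternative values computed, 44 stayed within 1 SD of the value reported (for counts of genes, within 1.5 times it). None of the 59 changed sign, but only the log2 ratios could have done so, since levels, shares and counts of genes cannot be negative. The 44 include 12 values without replicate 1 and 12 without replicate 2, which lie within 1 SD of a mean of 2 by construction. Reads of both strands repeat the miR-23 and miR-27 ratios exactly, and the opposite-strand column repeats the antisense shares exactly. Per hairpin base, an alternative added after the data were seen, the Mir27a over Mir27b log2 ratio was 0.37, against 0.62. Over single libraries the log2 ratios ran from 1.72 to 2.16 (miR-23), 0.55 to 0.70 (miR-27) and 3.44 to 4.50 (miR-24), and the Mir3074-1 share from 1.61% to 15.7%, so its mean describes neither library. Scaled by library totals, 3 members and 216 genes differed at least 2-fold. With at least 1 read in sum the genes numbered 228, and with at least 100 they numbered 40, since these filters change how many genes enter. Under the other scalings and filters 1 member did. Of 7 member levels with reads, 6 moved by over 1 SD (higher) with Mir21a left out of the total and 4 (lower) with the whole table as the total. At this depth, the limit of 3 counts leaves a Mir3074-2 share of up to 0.00319% in replicate 1 or 0.0129% in replicate 2 possible.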

Other observations

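Of the other 21 overlapping pairs, those with a higher gene below 1000 reads in at least 1 library, 15 had no read on the lesser gene in either library, 3 had such reads in 1 library and 3 had reads on both genes in both libraries. Mir3107, opposite the muscle-enriched Mir486, had 15 reads in replicate 1 against 109 for Mir486 (12.1%), and 4 in replicate 2 against 17 (19.0%). Mir219c, opposite Mir219a-1, had 40 against 722 (5.25%) in replicate 1 and 10 against 130 (7.14%) in replicate 2. Mir219a-2, opposite Mir219b, had 1 read against 13 in replicate 1 and 1 against 2 in replicate 2. These values rest on few reads and were looked up after the pattern at Mir24-1 had been seen.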
